A study of Mus musculus with 12 samples.

Results

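The SR proteins, the hnRNP proteins and the SF3 subunits are nuclear RNA-binding factors that decide which exons of a pre-mRNA are joined. Genes were included if their symbol in the count table was Srsf, Hnrnp, Sf3a or Sf3b followed by the member's number or letters, and if at least 10 counts were recorded in at least 3 of the 12 mice. Of 37748 genes in the table, 37 carried such a name and 36 met the count minimum: 10 SR genes, 18 hnRNP genes and 8 SF3 genes. Srsf12 was left out, with 1 count summed over all 12 mice. Genes of the same families filed under other symbols, such as Hnrpdl and Hnrpll, fell outside the naming rule and are counted with the related factors below.

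SR proteins carry a domain rich in serine and arginine, bind exonic enhancers and recruit the spliceosome, and kinases of the SRPK and CLK families set their activity. Many hnRNP proteins coat nascent transcripts and repress splice sites, so that the balance between the 2 families is a classical determinant of exon choice, in skeletal muscle as elsewhere. The SF3A and SF3B complexes are core parts of the U2 snRNP and hold it on the branch point of introns. They differ in this from the SR and hnRNP proteins, which are not core parts of this particle.

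RNA-seq was performed on gastrocnemius muscle of 13-week-old mice, 1 library per mouse and 3 mice in each of 4 groups. Control mice were ACTA1-MCM/+, carrying a tamoxifen-inducible Cre recombinase (MerCreMer) driven in skeletal muscle, and FLExD mice carried FLExDUX4/+ alone, a conditional transgene for the human transcription factor DUX4-fl. The treatment labels list no tamoxifen (TMX) for both single-transgenic groups. Bi-transgenic mice carried both alleles and were given 1 intraperitoneal TMX injection of 5 mg/kg (moderate) or 2 injections of 10 mg/kg on consecutive days (severe), with muscles taken on day 9. Recombination by this Cre is mosaic, so a muscle holds fibers with and without DUX4-fl. By these labels TMX went with the bi-transgenic genotype, and the effects of TMX and of recombination cannot be told apart in these libraries. The GEO description field names the FLExD libraries mild pathology, whereas their titles and strain give the single transgene; the latter was used.

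Depth was between 23796902 and 29136403 counts per mouse, and the 36 genes had between 69.5 and 10179 counts in a library. The 20 most abundant genes took 56.8% to 58.5% of the counts in single-transgenic, 47.3% to 49.3% in moderate and 30.4% to 33.2% in severe mice, and the TMM scaling factors ranged from 0.706 to 1.87. Levels are therefore given as CPM, counts scaled to a common TMM-adjusted library size, which sets the bulk of the genes equal between mice, and as TPM, a length-corrected share of all mRNA of a library. The 5 mature fast fiber markers checked were present in every group, with a summed level of 116014 to 164709 CPM in control, 52340 to 63858 CPM in moderate and 7202 to 13634 CPM in severe muscle. Markers of other cells moved as well. All 6 macrophage markers and all 4 cycling markers were higher in severe than in control muscle, with summed levels of 59.6 to 74.2 CPM against 750 to 857 CPM and of 1.14 to 2.89 CPM against 214 to 272 CPM, control first. All 4 satellite cell and myoblast markers rose too (9.74 to 10.8 against 103 to 141 CPM), 3 of 3 endothelial markers fell (116 to 132 against 50.5 to 59.9 CPM; with library size alone 2 of the 3 lay above 0), and of 4 fibroblast markers 2 were higher and 1 lower (604 to 1513 against 3773 to 4899 CPM; 4 above 0 with library size alone). The part of these cells in the results was not tested, and in whole muscle a change in the number of cells of a type cannot be told apart from a change of RNA per cell.

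**Figure D1:**
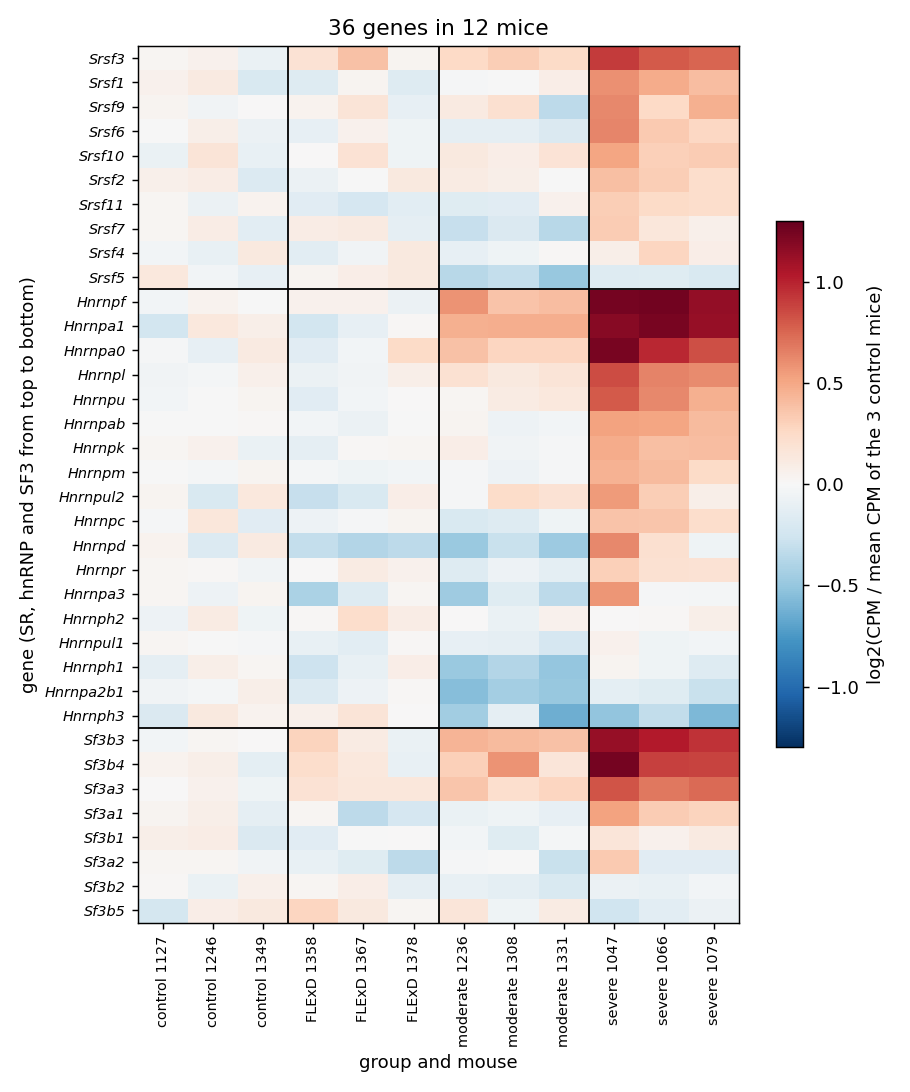
Level of each of the 36 genes (rows, grouped as SR, hnRNP and SF3) in each of the 12 mice (columns), as log2 of its CPM over the mean of the 3 control mice. Red is higher and blue lower than control. The strongest red is in Hnrnpf, Hnrnpa1, Hnrnpa0, Sf3b3 and Sf3b4 of the 3 severe mice. The blue cells gather in Hnrnpa2b1, Hnrnph1, Hnrnph3, Hnrnpd and Srsf5 of the moderate mice, whose fold changes lie above 0 with library size alone. Hnrnpd is also lower in the FLExD mice.

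The order of the genes within normal muscle was set by TPM, which compares genes per length. Hnrnpk, a poly(C)-binding hnRNP, had the highest mean TPM in control mice, at 74.8, 75.4 and 75.8. Next came Hnrnpa2b1, a relative of Hnrnpa1, at 68.2, 69.9 and 80.0 TPM, and Srsf5, the most abundant SR gene, at 79.1, 67.8 and 70.1 TPM. The ranges of these 3 genes overlapped, so their order was not resolved by 3 mice. Sf3b1, which encodes the large scaffold subunit that contacts the branch point, was the most abundant SF3 gene, at 32.0, 33.6 and 28.7 TPM. The lowest of the 36 was Sf3b4, at 2.09 to 2.41 TPM, although its protein sits in the same complex as that of Sf3b1.

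Counted against all mRNA, the 36 genes together took a larger part of the severe libraries than of the others. Their summed level was 826, 848 and 870 TPM in the control mice, 768, 820 and 949 in FLExD, 1139, 1239 and 1110 in moderate and 2742, 2637 and 2192 in severe mice. Control and FLExD mice overlapped, every moderate mouse lay above both, and every severe mouse lay above every moderate mouse. The size of this change depended on what the libraries were scaled to. With library size alone the median log2 fold change of the 36 genes in severe versus control muscle was 1.63, but that of all 16679 genes tested was 1.39, whereas with TMM factors the medians were 0.32 and 0.08. The distance between the members' and the overall median was 0.25 and 0.24 under these scalings, and in moderate muscle it was -0.07 under both. With limma on log2(TPM + 1) the distance was 0.75 in severe muscle (medians 1.54 and 0.79) and 0.15 in moderate muscle. The added 1 shrinks the fold changes of genes with low TPM, so this distance is not on the scale of the other 2.

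**Figure D2:**
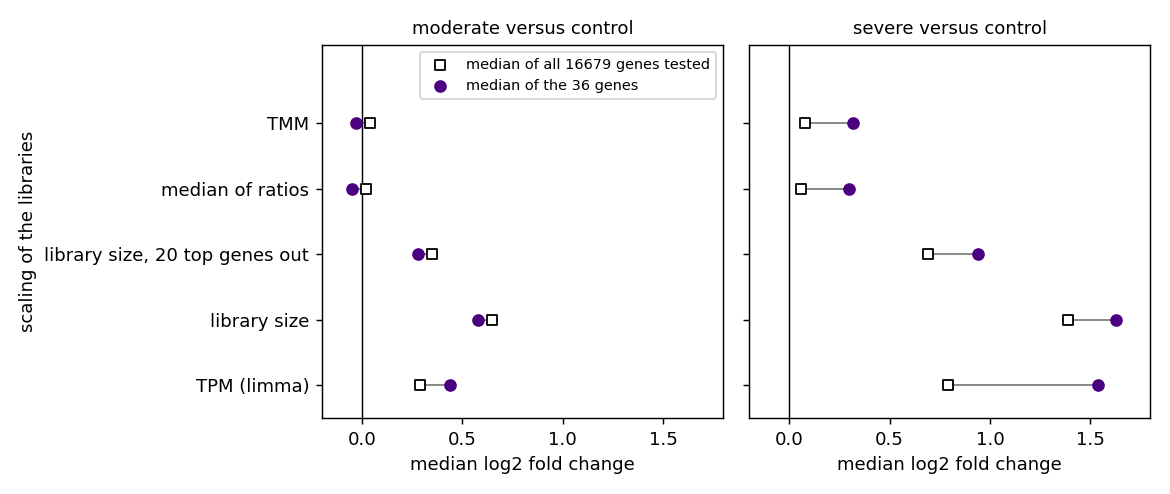
Median log2 fold change of the 36 genes (purple circles) and of all 16679 genes tested (open squares) in moderate and severe versus control muscle, under 5 ways of scaling the libraries (rows). Both medians move to the right together when library size is used, from 0.32 and 0.08 with TMM to 1.63 and 1.39 in severe muscle. The TPM row shows the widest gap, but it is on log2(TPM + 1), where the added 1 shrinks the changes of low genes.

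How the sum was divided among the 3 families varied little. SR genes made up 31.7%, 30.1% and 28.6% of the summed TPM in control, 32.7%, 32.6% and 30.4% in FLExD, 29.7%, 30.6% and 29.3% in moderate and 28.7%, 28.6% and 29.2% in severe mice. The hnRNP genes held 57.7% ± 1.49 (SD, n = 3) in control, 55.8% ± 1.85 in FLExD, 57.6% ± 0.356 in moderate and 60.5% ± 0.617 in severe mice. The SF3 genes held 12.1% ± 0.176, 12.3% ± 0.565, 12.5% ± 0.391 and 10.7% ± 0.313 in the same order. The SR shares of the severe mice overlapped those of the control mice and lay below every moderate and FLExD mouse, and the severe mice had the 3 highest hnRNP and the 3 lowest SF3 shares of the 12 mice. No test was made on these shares, which are sums over a chosen list.

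**Figure D3:**
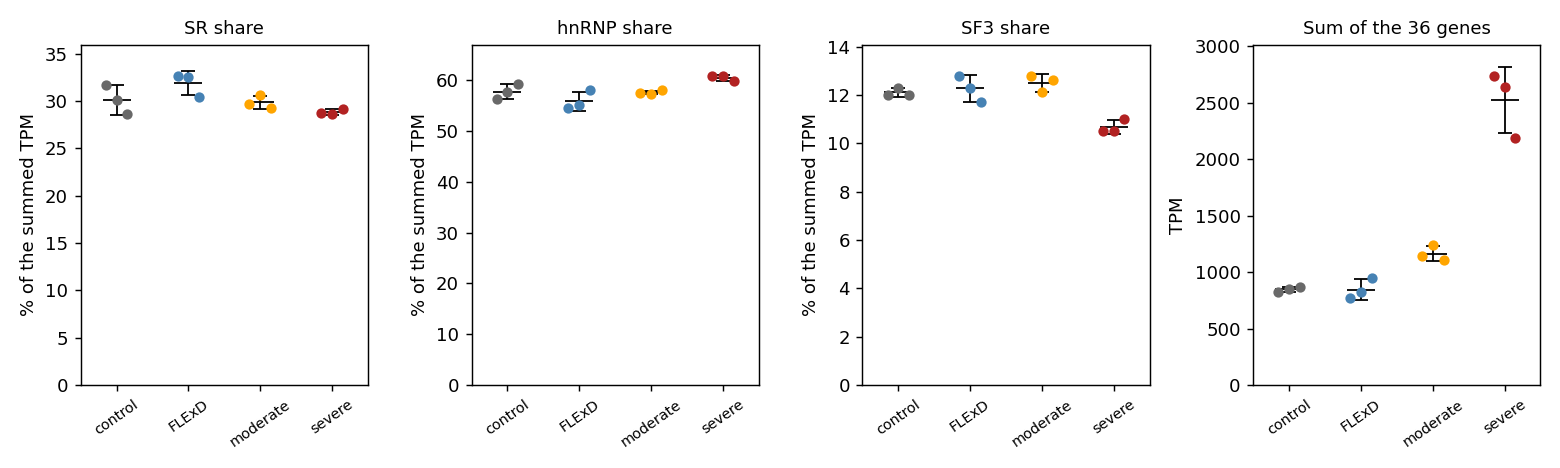
Share of SR, hnRNP and SF3 genes in the summed TPM of the 36 genes (3 panels, in percent) and the sum itself (right panel, TPM) in each mouse, by group. Points are mice and bars the mean ± SD of 3 mice; the shares stay within 28.6% to 32.7% for SR genes while the sum goes from 768 to 2742 TPM.

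Between FLExD and control mice no call was made. None of the 36 genes was called higher (0% of all genes tested) or lower (0.00600% of all genes) by edgeR's quasi-likelihood test with Benjamini-Hochberg adjustment over 16679 genes, where a call needed an adjusted p under 0.05 and a log2 fold change of at least 0.5, which is 1.4-fold. DESeq2 and limma on TPM also called 0, and at an unadjusted p under 0.05 there was 1 gene in each direction. The log2 fold changes ran from -0.34 for Hnrnpd to 0.21 for Srsf3. For Srsf3 the 3 FLExD mice stood at 63.7, 72.7 and 57.0 CPM and the 3 controls at 56.7, 58.2 and 52.5 CPM, so that the groups overlapped. For Hnrnpd they did not, at 12.5, 11.9 and 12.3 CPM in FLExD and 16.0, 13.7 and 16.9 CPM in control mice. In all, the FLExD mice lay below every control mouse in 5 of the 36 genes, Hnrnpab, Hnrnpd, Hnrnpm, Sf3a2 and Srsf11 (13.9%, against 4.59% of all genes tested), and above in 1, Sf3a3 (2.78%, against 4.01%), all with an adjusted p of 1.00.

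In moderate muscle the differences were small and went both ways. With the fold threshold 0 of 36 were called higher and 0 lower, where 24.4% of all genes tested were called higher and 17.0% lower (edgeR). With the adjusted p alone 6 were higher (16.7%, against 29.0% of all genes) and 6 lower (16.7%, against 24.9%), and an unadjusted p under 0.05 was reached by 7 and 6. The higher 6 were Hnrnpa1, Hnrnpf, Sf3b3, Hnrnpa0, Sf3a3 and Srsf3, with log2 fold changes of 0.28 to 0.47. The lower 6 were Hnrnpa2b1, Hnrnph1, Hnrnpd, Hnrnph3, Srsf5 and Srsf7, at -0.50 to -0.28 with TMM factors, but all 6 came out above 0, at 0.11 to 0.33, with library size alone, where the median of all genes was 0.65. With limma on TPM, Hnrnpd and Srsf7 turned to 0.62 and 0.37 (adjusted p = 0.0120 and 0.0201) and the other 4 lost the call, at -0.03 to 0.15. DESeq2 and median-of-ratios factors each called 1 gene lower (against 17.8% and 17.9% of all genes) and 0 higher (against 23.3% and 23.7%) with the fold threshold. Library size alone called 24 higher (66.7%, against 52.5% of all genes) and limma on TPM 14 (38.9%, against 31.5%). Both called 0 lower (against 4.51% and 4.42%).

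In severe muscle 29 of the 36 log2 fold changes lay above 0 with TMM factors, as did 8856 of all 16679. With the fold threshold 9 of the 36 genes rose (25.0%, against 32.9% of all genes tested) and 0 fell (against 27.9%; edgeR). DESeq2 gave 9 and 0 as well, and 2 genes were lower at an unadjusted p under 0.05. With the adjusted p alone, 22 rose (61.1%, against 37.7% of all genes) and 1, Hnrnph3, was lower (2.78%, against 33.5%). The median standard error was 0.09 for the members and 0.17 for all genes, so smaller changes of the members could pass on p alone. The upward share was thus below that of all genes by one rule and above it by the other. By family, the fold threshold was passed by 1 of 10 SR, 5 of 18 hnRNP and 3 of 8 SF3 genes, and the adjusted p alone by 7, 11 and 4 in the upward direction. Library size alone called all 36 genes higher, and limma on TPM did too. These settings also called 75.4% and 64.1% of all genes tested higher. Both comparisons use the same 3 control mice.

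Severe and moderate mice were also compared directly. The controls are not a side of this contrast, but the gene filter, the TMM factors and the estimate of the spread came from all 12 mice. With the fold threshold 12 genes were higher in severe muscle (33.3%, against 17.6% of all genes) and 0 lower (against 18.8%; edgeR). By the adjusted p alone 26 were higher (72.2%, against 24.1%) and 0 lower (against 26.3%), and at an unadjusted p under 0.05 there were 27 higher and 0 lower. Here too the median standard error was smaller for the members, 0.09 against 0.16 for all genes. Library size alone and limma on TPM each called 35 higher (97.2%, against 57.8% and 48.2% of all genes) and 0 lower (against 4.93% and 3.77%). The count of 12 leaned on severe mouse 1047: without it 6 were called higher (16.7%, against 13.6% of all genes). These were Hnrnpf, Hnrnpa1, Hnrnpa0, Sf3b3, Sf3b4 and Hnrnpd. This mouse had the highest CPM of the 3 severe mice in 28 of the 36 genes, and also the highest TMM factor, 1.87.

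**Figure D4:**
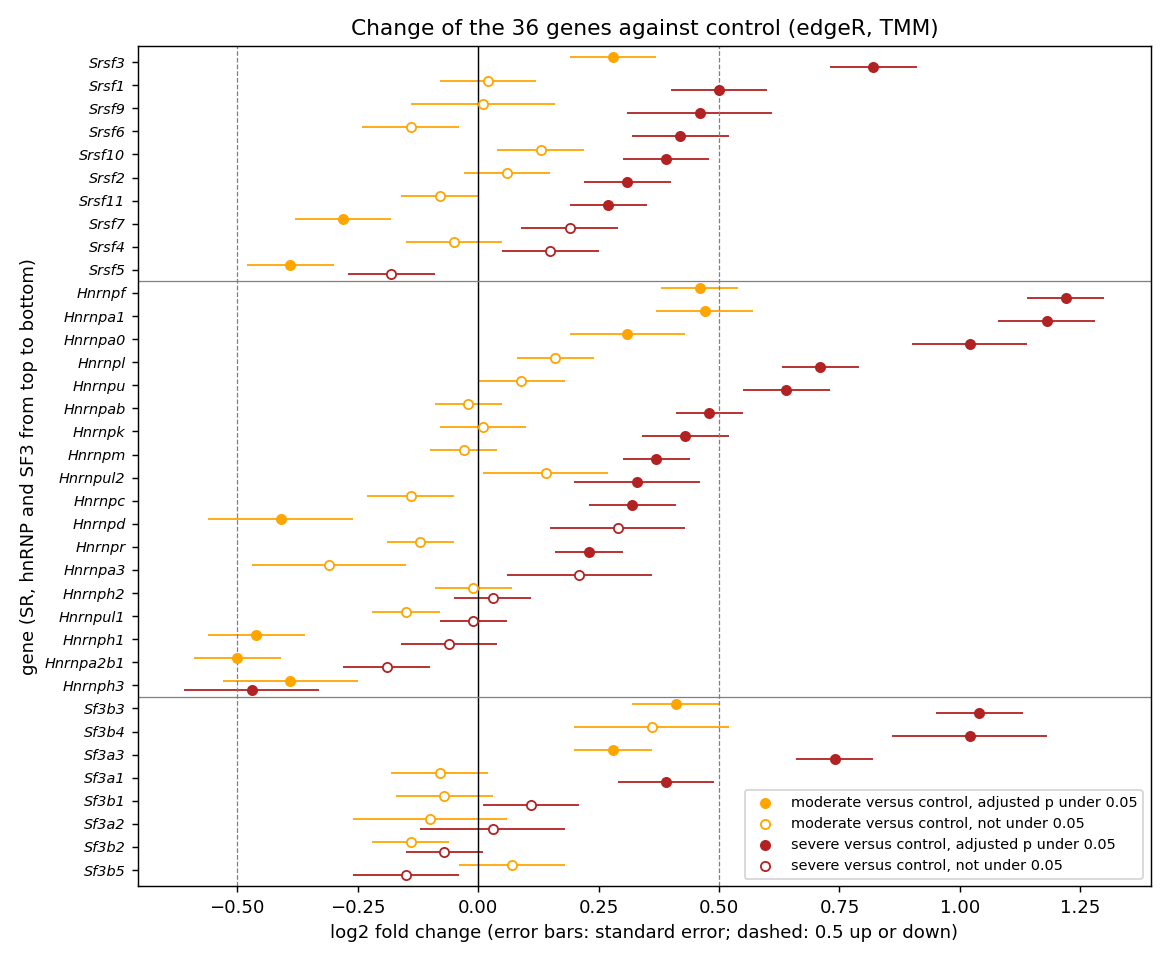
Log2 fold change of the 36 genes (rows) in moderate (orange) and severe (red) versus control muscle, by edgeR with TMM factors; bars are standard errors, filled points have an adjusted p under 0.05 and dashed lines mark 0.5 up or down. Most red points lie to the right of the orange point of the same gene, with Hnrnpf at 1.22 and Hnrnpa1 at 1.18 farthest right, and no gene passes the left line with a call.

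The promoters of a few members are shown as a description, and a link between promoter and level was not tested. RefSeq (GRCm38.p6) gave the 250 bases before the start for 33 of the 36 genes, and 11 short motifs were searched on both strands. The ETS core CCGGAA was found in 16 of 33 (48.5%), against 23.1% of the promoters of 10656 genes tested and 13.6% of all 27025 promoters. The CCAAT box was found in 18 (54.5%, against 40.1% and 37.5%) and the GC box GGGCGG in 25 (75.8%, against 60.7% and 35.4%). The partial CRE site TGACGT, which is also part of the full site TGACGTCA, was in 7 (21.2%, against 10.9% and 7.29%) and TGACGTCA in 0 (against 2.84% and 1.77%). TATAAA was in 4 (12.1%, 8.51% and 14.3%), TTCGCGC in 4 (12.1%, 2.74% and 1.48%), CACGTG in 3 (9.09%, 9.52% and 6.86%) and GCATGCGC in 3 (9.09%, 4.60% and 2.56%). TCTCGCGA was in 2 (6.06%, 1.84% and 0.977%) and AAGATGGCG in 0 (1.25% and 0.710%). A match is a description of the letters and not a bound site. Members had a median GC content of 61.6% in these windows, against 59.2% in the genes tested.

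The windows of 4 members, picked after their values were seen, are printed 5′ to 3′ on the strand of the gene: Hnrnpa1, Sf3b3 and Srsf3, which rose in severe muscle, and Srsf5, which was lower in moderate muscle with TMM factors. Every searched motif on either strand is in capitals. They cover chr15:103240147-103240396 (Hnrnpa1, plus strand), chr8:110846804-110847053 (Sf3b3, minus), chr17:29032410-29032659 (Srsf3, plus) and chr12:80945249-80945498 (Srsf5, plus).
Hnrnpa1: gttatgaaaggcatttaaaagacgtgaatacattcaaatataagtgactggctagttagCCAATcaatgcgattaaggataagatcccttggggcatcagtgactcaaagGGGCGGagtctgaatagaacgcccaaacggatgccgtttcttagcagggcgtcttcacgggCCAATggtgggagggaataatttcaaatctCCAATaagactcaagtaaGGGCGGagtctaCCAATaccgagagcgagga
Sf3b3: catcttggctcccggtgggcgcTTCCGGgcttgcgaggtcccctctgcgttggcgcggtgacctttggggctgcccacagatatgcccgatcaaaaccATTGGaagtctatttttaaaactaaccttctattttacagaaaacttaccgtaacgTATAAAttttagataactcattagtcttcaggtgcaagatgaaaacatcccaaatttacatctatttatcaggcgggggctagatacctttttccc
Srsf3: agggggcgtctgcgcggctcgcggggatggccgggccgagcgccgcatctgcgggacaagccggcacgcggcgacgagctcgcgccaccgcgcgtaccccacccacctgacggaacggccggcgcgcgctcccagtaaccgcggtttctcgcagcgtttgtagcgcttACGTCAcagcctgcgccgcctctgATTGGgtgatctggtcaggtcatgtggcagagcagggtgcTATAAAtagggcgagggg
Srsf5: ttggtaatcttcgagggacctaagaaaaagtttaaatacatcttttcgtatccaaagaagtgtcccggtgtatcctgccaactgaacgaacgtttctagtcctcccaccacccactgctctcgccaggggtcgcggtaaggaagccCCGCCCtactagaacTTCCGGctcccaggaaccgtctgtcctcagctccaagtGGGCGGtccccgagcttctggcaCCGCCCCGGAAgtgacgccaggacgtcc

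The Hnrnpa1 window held 4 CCAAT boxes and 2 GC boxes, and neither the Hnrnpa1 nor the Srsf3 window held CCGGAA. Srsf3 had 1 CCAAT box (as ATTGG), 1 TGACGT (as ACGTCA) and 1 TATAAA close to the start. Srsf5, lower in moderate muscle with TMM factors, had 2 CCGGAA (1 as TTCCGG) and 3 GC boxes, of which the last overlaps the CCGGAA beside it. Sf3b3 had 1 CCGGAA (as TTCCGG), 1 CCAAT box (as ATTGG) and 1 TATAAA.

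Hnrnpf rose most. It encodes a protein that binds runs of G near splice sites, and lies at chr6:117900324-117925622 on the plus strand (GRCm38). The control mice stood at 61.9, 65.4 and 63.3 CPM, FLExD at 66.0, 66.1 and 60.3, moderate at 95.2, 82.0 and 84.1 and severe at 151, 152 and 140. The 3 steps did not overlap: every moderate mouse was above the single-transgenic mice and below the severe mice. The log2 fold change was 0.46 ± 0.08 (SE) in moderate (edgeR adjusted p = 3.7e-04) and 1.22 ± 0.08 in severe muscle (adjusted p = 1.3e-08), 2.32-fold, and 0.76 ± 0.08 between the models (adjusted p = 8.4e-06). Of its exon bases, 13.5% overlap 4933440N22Rik, and no strand setting is given in the sources used here, so reads there cannot be assigned to either.

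Hnrnpa1, the prototype splicing silencer factor that competes with SR proteins for exons, lies at chr15:103240432-103246692 on the plus strand. It was at 49.8, 64.8 and 62.0 CPM in control, 49.9, 54.6 and 59.3 in FLExD, 81.3, 81.7 and 81.4 in moderate and 134, 138 and 129 in severe mice. The moderate mice were nearly equal and lay wholly between the single-transgenic and the severe mice. In severe muscle the log2 fold change was 1.18 ± 0.10 (adjusted p = 1.0e-07). All 12 of its counts were fractional, so part of its reads was shared with other genes or pseudogenes, and its level is less certain than that of a gene with unique reads. The same limit holds for other members, among them Hnrnpf, Sf3b3, Sf3b4, Hnrnpu, Srsf1, Srsf5, Hnrnpa2b1, Hnrnph1 and Hnrnph3.

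Hnrnpa0, an hnRNP that binds AU-rich elements, was the third hnRNP by size of change. The controls stood at 19.9, 18.6 and 21.7 CPM, FLExD at 18.1, 19.6 and 23.9, moderate at 26.1, 24.4 and 24.3 and severe at 47.3, 39.6 and 35.8. Its 12 counts were all whole, so none of this rests on divided reads. Its log2 fold change was 1.02 ± 0.12 in severe muscle (adjusted p = 2.3e-06). Hnrnpl, which binds CA repeats, and Hnrnpu, a protein of the nuclear matrix, also passed the fold threshold, at 0.71 ± 0.08 and 0.64 ± 0.09, and neither had passed the test in moderate muscle (0.16 and 0.09).

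A further 6 hnRNP genes passed the adjusted p in severe muscle below the fold threshold: Hnrnpab, Hnrnpk, Hnrnpm, Hnrnpul2, Hnrnpc and Hnrnpr, at log2 fold changes of 0.23 to 0.48. The call of Hnrnpul2 (adjusted p = 0.0400) was lost with median-of-ratios factors (adjusted p = 0.0524) and without severe mouse 1047 (0.21, adjusted p = 0.176). Hnrnpk, with the highest mean TPM in control mice, was at 167, 171 and 154 CPM in control, 151, 166 and 167 in FLExD, 174, 159 and 162 in moderate and 229, 215 and 217 in severe mice. Only the severe mice stood apart, with a log2 fold change of 0.43 ± 0.09 (adjusted p = 5.1e-04), against 0.01 ± 0.09 in moderate muscle. For Hnrnpab, 29.1% of the exon bases overlap Phykpl, and for Hnrnpm 14.7% overlap March2.

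Other hnRNP genes were lower in moderate muscle and not called lower in severe muscle, with TMM factors. Hnrnpa2b1, whose protein also directs mRNA transport, lies at chr6:51460932-51469894 on the minus strand. It was at 151, 153 and 164 CPM in control, 138, 149 and 158 in FLExD, 106, 115 and 111 in moderate and 143, 140 and 128 in severe mice. The moderate mice were below all others, and the severe mice overlapped FLExD but not control. With TMM factors it fell by 0.50 on the log2 scale in moderate muscle (SE 0.09, adjusted p = 2.5e-04), just short of the fold threshold, and it was 0.31 ± 0.09 higher in severe than in moderate muscle (adjusted p = 0.00920). The severe versus control value was -0.19 ± 0.09 (adjusted p = 0.0628), and it was 1.12 with library size alone.

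Hnrnph1, which binds G runs as Hnrnpf does, moved like Hnrnpa2b1 in these libraries and not like Hnrnpf. Its levels were 85.0, 97.0 and 93.9 CPM in control, 76.3, 85.9 and 97.6 in FLExD, 65.6, 70.5 and 65.1 in moderate and 94.5, 88.7 and 82.1 in severe mice. Here too the moderate mice were the lowest, and severe and control mice overlapped. The log2 fold change was -0.46 ± 0.10 in moderate (adjusted p = 0.00142; 0.15 with library size alone), -0.06 ± 0.10 in severe muscle (adjusted p = 0.622) and 0.40 ± 0.10 between the models (adjusted p = 0.00401). Hnrnpd, a regulator of AU-rich mRNAs, gave -0.41 ± 0.15 in moderate (0.19 with library size alone and, past the test the other way, 0.62 with limma on TPM) and 0.29 ± 0.14 in severe muscle (adjusted p = 0.0285 and 0.0840), and its severe mice were spread, at 24.0, 18.0 and 14.9 CPM. Its moderate mice, at 11.1, 12.7 and 11.2 CPM, overlapped the FLExD mice, at 12.5, 11.9 and 12.3 CPM. FLExD versus control gave -0.34 ± 0.15 with no call, so the lower level was not particular to the moderate model.

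Hnrnph3, a smaller relative of Hnrnph1, was the only member lower past the adjusted p in severe muscle with TMM factors. Control mice were at 7.56, 9.39 and 8.91 CPM, FLExD at 9.05, 9.67 and 8.63, moderate at 6.28, 7.97 and 5.55 and severe at 6.04, 6.89 and 5.77. The severe mice were all below control, while 1 moderate mouse overlapped it. The log2 fold change was -0.39 ± 0.14 in moderate (adjusted p = 0.0309) and -0.47 ± 0.14 in severe muscle (adjusted p = 0.00764) with TMM factors, but 0.22 and 0.83 with library size alone. In severe muscle Hnrnpf and Hnrnph3, both of the G-run binding subfamily, thus stood at opposite ends of the 18 hnRNP genes, with Hnrnph2 between them at 0.03 ± 0.08 (adjusted p = 0.723). Hnrnpul1 and Hnrnpa3, at -0.01 and 0.21, did not pass the test in either model against control.

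**Figure D5:**
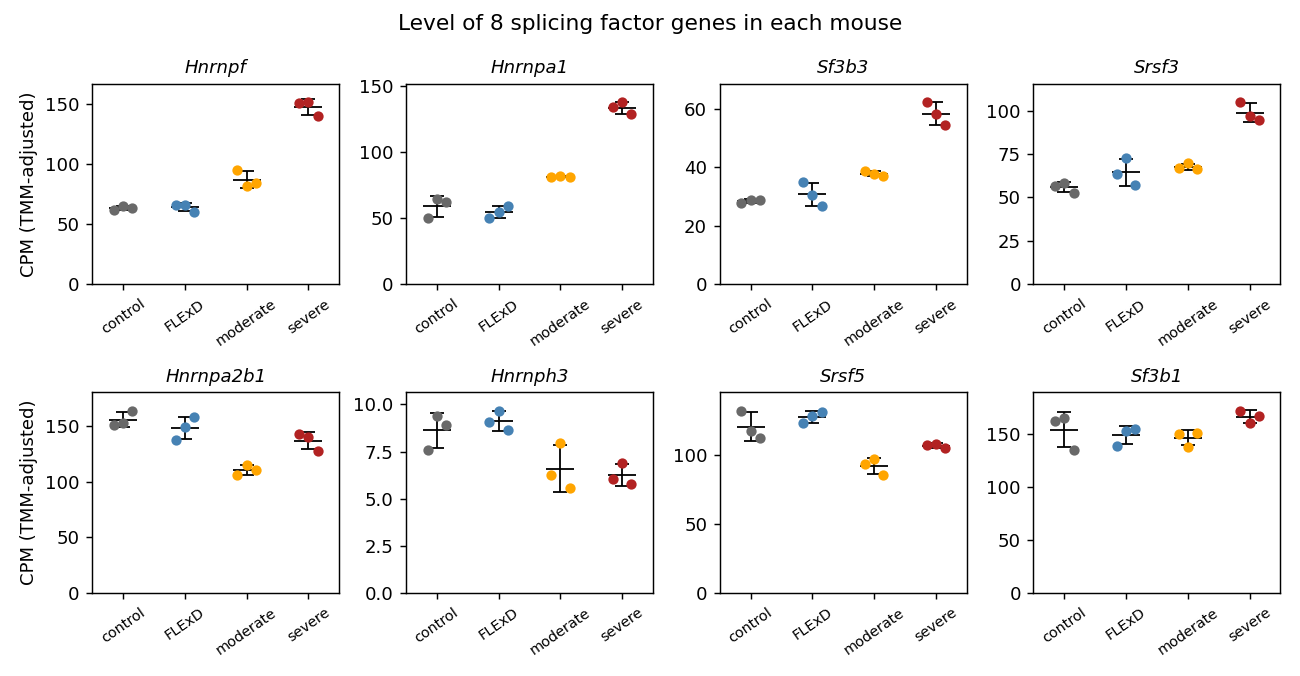
CPM on TMM-adjusted library sizes of 8 genes in each of the 12 mice, by group; points are mice and bars the mean ± SD of 3. The upper 4 genes climb from control over moderate to severe, Hnrnpa2b1 and Srsf5 are lowest in the moderate mice and Hnrnph3 is low in both models on this scale (above control with library size alone), and Sf3b1 is nearly level.

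Among the SR genes Srsf3 rose most. It encodes the smallest SR protein, which also takes part in mRNA export, and lies at chr17:29032628-29043373 on the plus strand. Its levels were 56.7, 58.2 and 52.5 CPM in control, 63.7, 72.7 and 57.0 in FLExD, 66.9, 69.7 and 66.4 in moderate and 105, 96.9 and 94.4 in severe mice. The moderate mice were above control but overlapped FLExD, and the severe mice were above all others. The log2 fold change was 0.28 ± 0.09 in moderate (adjusted p = 0.0202) and 0.82 ± 0.09 in severe muscle (adjusted p = 1.8e-06). All 12 of its counts were fractional.

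Srsf1, an oncogenic SR protein first known as a splicing factor for alternative 5' splice sites, was at 80.6, 83.9 and 67.7 CPM in control, 69.1, 79.5 and 69.0 in FLExD, 76.8, 77.2 and 81.9 in moderate and 117, 108 and 102 in severe mice. Its change in severe muscle, 0.50 ± 0.10 (adjusted p = 3.9e-04), rounds to the fold threshold and lay just under it. Srsf9, at 5.96, 5.64 and 5.83 CPM in control, 6.0, 6.54 and 5.40 in FLExD, 6.31, 6.69 and 4.60 in moderate and 8.97, 6.93 and 8.02 in severe mice, gave 0.46 ± 0.15 in severe muscle (adjusted p = 0.0129; 0.37 and 0.0537 without severe mouse 1047). For both genes the severe mice were above the other 9. Srsf6, Srsf10, Srsf2 (a nuclear speckle marker) and Srsf11 passed the adjusted p in severe muscle at log2 fold changes of 0.27 to 0.42 and did not pass it in moderate muscle.

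The lower end of the SR family was Srsf5, the SR gene with the highest TPM in control mice, at chr12:80945504-80950507 on the plus strand. It was at 132, 117 and 112 CPM in control, 123, 128 and 131 in FLExD, 93.6, 96.9 and 85.3 in moderate and 107, 108 and 105 in severe mice. All moderate and severe mice were below all single-transgenic mice on this scale. The log2 fold change was -0.39 ± 0.09 in moderate muscle (adjusted p = 0.00152; 0.22 with library size alone) and -0.18 ± 0.09 in severe muscle (adjusted p = 0.0770; 1.13 with library size alone). Against the other members its share of the summed TPM went from 8.54% ± 0.901 in control to 5.75% ± 0.322 in severe mice, a comparison within the library that no scaling between mice can turn, and its rank from the third to the fifth.

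Srsf7 and Srsf4 were the other SR genes at this end. Srsf7, a partner of Srsf3 in export, was at 27.1, 28.4 and 24.2 CPM in control, 28.5, 28.9 and 24.5 in FLExD, 21.6, 23.3 and 20.7 in moderate and 33.4, 29.4 and 27.9 in severe mice. The moderate mice were again the lowest, at -0.28 ± 0.10 (adjusted p = 0.0262; 0.33 with library size alone), and the severe mice were 0.47 ± 0.10 above them (adjusted p = 0.00117). Srsf4 was at 14.1, 13.5 and 15.8 CPM in control, 13.2, 14.0 and 15.8 in FLExD, 13.4, 13.9 and 14.6 in moderate and 15.2, 17.5 and 15.4 in severe mice, with no call. The severe mice lay above the moderate mice, and the other pairs of groups overlapped. Of its exon bases 43.0% overlap Gm12992.

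The SF3 genes split, although their products are parts of 1 particle. Sf3b3, which encodes a large subunit packed against that of Sf3b1, lies at chr8:110810239-110846787 on the minus strand. Its levels were 27.7, 28.9 and 28.6 CPM in control, 34.8, 30.5 and 26.8 in FLExD, 38.7, 37.7 and 36.9 in moderate and 62.3, 58.0 and 54.4 in severe mice. The moderate mice were above and the severe mice far above all single-transgenic mice. The log2 fold change was 0.41 ± 0.09 in moderate (adjusted p = 0.00183) and 1.04 ± 0.09 in severe muscle (adjusted p = 1.7e-07), 2.05-fold.

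Sf3b4, whose protein contacts the pre-mRNA upstream of the branch point, was at 3.73, 3.81 and 3.32 CPM in control, 4.23, 3.97 and 3.38 in FLExD, 4.48, 5.41 and 4.05 in moderate and 8.57, 6.72 and 6.64 in severe mice. Its change was 1.02 ± 0.16 in severe muscle (adjusted p = 4.0e-05), with the widest error of the called genes, and 0.36 ± 0.16 in moderate muscle (adjusted p = 0.0730). Sf3a3, a subunit of the SF3A complex, was at 10.6, 11.0 and 10.2 CPM in control, 12.1, 11.7 and 11.7 in FLExD, 13.6, 12.3 and 12.9 in moderate and 18.7, 17.1 and 17.6 in severe mice. The 4 groups of Sf3a3 did not overlap, but FLExD versus control had an adjusted p of 1.00, and the changes were 0.28 ± 0.08 in moderate (adjusted p = 0.0103) and 0.74 ± 0.08 in severe muscle (adjusted p = 1.5e-06). Sf3a1 passed the adjusted p alone in severe muscle, at 0.39 ± 0.10.

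The other 4 SF3 genes passed no test against control or between the models. Sf3b1, the most abundant, was at 162, 165 and 135 CPM in control, 139, 153 and 155 in FLExD, 150, 138 and 151 in moderate and 172, 160 and 167 in severe mice, with a log2 fold change of 0.11 ± 0.10 in severe muscle (adjusted p = 0.295). Sf3b2, the direct partner of Sf3b4, was at 82.9, 77.6 and 86.0 CPM in control, 83.6, 87.3 and 76.0 in FLExD, 76.6, 75.0 and 71.8 in moderate and 78.0, 77.0 and 80.0 in severe mice. Its value in severe muscle, -0.07 ± 0.08 (adjusted p = 0.440), stood beside 1.02 for Sf3b4, and with library size alone the values were 1.23 and 2.33. The difference between the 2 genes was not tested.

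Sf3b5, a small subunit, was at 11.6, 14.4 and 14.8 CPM in control, 16.5, 14.8 and 13.8 in FLExD, 15.2, 13.1 and 14.6 in moderate and 11.4, 12.4 and 12.9 in severe mice, with a severe value of -0.15 ± 0.11 (adjusted p = 0.225; 1.15 with library size alone). Sf3a2 was at 4.82, 4.82 and 4.60 CPM in control, 4.43, 4.26 and 3.76 in FLExD, 4.70, 4.72 and 3.88 in moderate and 6.0, 4.29 and 4.28 in severe mice, where 16.1% of the exon bases overlap Plekhj1. For these genes the severe and control mice overlapped.

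Related factors outside the naming rule were read from lists of their own. Of the hnRNP-type proteins with other names, 9 of 14 rose in severe muscle (64.3%, against 32.9% of all genes tested) and 0 fell (against 27.9%) past the fold threshold, with a median log2 fold change of 0.56. Ptbp1, the polypyrimidine tract binding repressor, was at 1.49 (adjusted p = 1.6e-07) and Pcbp1, a poly(C)-binding protein, at 1.16 (adjusted p = 8.3e-06). In moderate muscle 2 of 14 (14.3%, against 24.4% of all genes), the same Ptbp1 and Pcbp1, rose, at 0.74 and 0.86, and 0 fell (against 17.0%).

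The SR-related proteins, kinases and import receptor gave equal counts with TMM factors, 3 of 17 higher and 3 lower in severe muscle (17.6% each, against 32.9% and 27.9% of all genes tested). With library size alone 16 were higher and 0 lower, where 75.4% of all genes were called higher and 6.42% lower. Clk2, an SR protein kinase, was 1.42 higher (adjusted p = 9.0e-08; 1.82 in moderate muscle), whereas Srpk3, the SR protein kinase restricted to muscle, was at -1.13 (adjusted p = 1.7e-06; -1.17 in moderate muscle; 0.18 and -0.56 with library size alone). Among the U2 snRNP and branch point partners 2 of 14 were higher and 2 lower (13 and 0 with library size alone), with Htatsf1 at -1.61 and Cherp at 0.91. The Sm core and U1 snRNP gave 4 higher and 2 lower of 10 (9 and 0), with Snrpd1 at 1.2 and Snrpb at -0.85. The U5 and tri-snRNP proteins gave 1 and 2 of 12 (10 and 0), with Eftud2 at 1.12 and Prpf4 at -1.10, and the Prp19 complex and catalytic factors 2 and 3 of 15 (14 and 0), with Prpf19 at -1.25 and Slu7 at -0.77. With library size alone the negative values of these genes came to -0.31 for Htatsf1, 0.46 for Snrpb, 0.20 for Prpf4, 0.06 for Prpf19 and 0.53 for Slu7. The medians of these 5 lists lay between -0.14 and 0.15 in severe muscle, beside 0.32 for the 36 genes and 0.08 for all genes tested.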

How the data were processed

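Poly(A) RNA of 12 gastrocnemius muscles, 1 per mouse, was sequenced as single-end reads of 50 bases. The authors mapped reads to mm10 with RSEM 1.2.4, which called Bowtie, and TopHat2 2.0.8b, per the submitters' processing notes, and deposited expected counts for 37748 genes without normalization. The authors also deposited TPM from the same estimates. Because RSEM divides shared reads, 31.8% to 36.2% of the counts of a library were not whole (tolerance 0.005); 24 of the 36 genes had such values.

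Groups came from the sample labels. Counts were rounded and tested with edgeR 4.0.16 in R 4.3.3 (filterByExpr, TMM, robust quasi-likelihood F-test, 1 fit of 4 groups) with Benjamini-Hochberg adjustment over 16679 genes, and standard errors were derived from the F statistic. DESeq2 1.42.0 and limma 3.58.1 on log2(TPM + 1) were alternatives, with other scalings, filters and call rules and each mouse left out. The edgeR step was tested on simulated data. The labels call the mice separate animals but name no litter or batch, and p-values measure the spread between these mice. Depth was 23796902 to 29136403 counts per mouse.

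Members and lists were chosen with earlier results of these data known. Genes given in every mouse were, in each family, the 3 with the largest and the 3 with the smallest change in severe versus control and the one with the highest TPM in controls; Hnrnpd was added after its values were seen, for its calls. Of each related list, up to 2 genes with the largest change are named. Shares of the summed TPM had been planned with an exact test, which was left out because it would be a test over a chosen list. Positions and exon overlaps came from GENCODE M21 (GRCm38) and promoters from RefSeq. Figures were drawn with matplotlib 3.10.9. The mild model and the splicing events were not analysed here.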

Additional observations from a re-analysis of the deposited data

How the results depend on the processing

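The scaling of the libraries decided how many of the 36 genes were called. In moderate versus control muscle the 0 genes called higher became 24 with library size alone, 7 with library size without the 20 top genes, 14 with limma on log2(TPM + 1), 2 with no filter, 2 with at least 10 counts in every mouse and 6 with no fold threshold. The shares of all genes called higher were 52.5%, 36%, 31.5%, 15.7%, 23.0% and 29.0%, in the same order. Among these settings the members were above all genes only with library size alone (66.7%) and with limma (38.9%), and below in the rest. The 0 called lower became 1 with median-of-ratios factors, 1 with DESeq2 and 6 with no fold threshold (against 17.9%, 17.8% and 24.9% of all genes). In severe versus control muscle the 9 called higher became 36 with library size alone, 32 without the 20 top genes and 36 with limma. They became 14 with no filter, 16 with at least 10 counts in every mouse and 22 with no fold threshold. Of all genes, 75.4%, 53.7%, 64.1%, 22.6%, 32.0% and 37.7% were called higher, in the same order. The members were thus below all genes in the main fit (25.0% against 32.9%). They were above with no filter (38.9% against 22.6%) and with at least 10 counts in every mouse (44.4% against 32.0%). At a log2 fold of at least 1 the count was 5, and the share of all genes was not counted at that fold in any comparison. The 0 called lower became 1 with no fold threshold (against 33.5%). In severe versus moderate muscle the 12 called higher became 35, 27 and 35 with library size alone, without the 20 top genes and with limma. They became 26 with no fold threshold and 0 at a log2 fold of at least 1. The shares of all genes were 57.8%, 32.4%, 48.2% and, with no fold threshold, 24.1%. The 9 genes called in severe muscle were among those called under each of the other scalings, filters and tools.

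With library size alone, 14 of the 36 genes turned sign past the adjusted p in moderate muscle, 7 in severe muscle and 2 between the models; with limma on TPM the counts were 14, 7 and 2, without the 20 top genes 6, 6 and 0, and 0 in each with median-of-ratios factors and DESeq2. Among the genes given in every mouse, those past the fold threshold too were Srsf4 (0.56), Sf3a2 (0.51) and Sf3b1 (0.54) in moderate muscle with library size alone. In severe muscle they were Srsf5 (1.13; 0.99 with limma), Hnrnph3 (0.83; 0.75), Hnrnpa2b1 (1.12; 0.97), Hnrnph1 (1.25; 0.99; 0.55 without the 20 top genes), Sf3b5 (1.15; 1.03) and Sf3b2 (1.23; 1.13; 0.54), beside Hnrnpul1 (1.29; 1.2; 0.60), and between the models Hnrnph3 (0.62; 0.60). The median of all genes in severe versus control muscle moved too, from 0.08 to 1.39 with library size alone and 0.79 with limma. In moderate versus control muscle it moved from 0.04 to 0.65 and 0.29. How many of all genes turned sign was not counted, so the turns cannot be read as a trait of the 36 genes.

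With each mouse left out, the counts called higher ranged from 0 to 1 in moderate and 9 to 11 in severe versus control and from 6 to 15 between the models. Of all genes, 21.1% to 24.1%, 30.8% to 32.5% and 13.6% to 18.0% were called higher, in the same order. The counts called lower ranged from 0 to 3, from 0 to 1 and stayed at 0. Of all genes, 14.8% to 17.7%, 26.1% to 27.6% and 15.2% to 19.1% were called lower, in the same order. The lowest count between the models came without severe mouse 1047 and the highest without severe mouse 1079; up to 3 genes were called lower in moderate muscle without control mouse 1127. The SR share of bi-transgenic minus single-transgenic mice was -1.68 percentage points (-2.16 to -1.34) and the SF3 share -0.585 (-0.835 to -0.359). The SR value pools unlike groups, with means of 30.2% in control, 31.9% in FLExD, 29.9% in moderate and 28.8% in severe mice. Control and moderate mice were thus close, and FLExD mice were the highest. The SF3 value pools models on either side of the single-transgenic mice. Its means were 12.5% in moderate and 10.7% in severe mice, beside 12.1% in control and 12.3% in FLExD. FLExD versus control gave 0 calls throughout. No paired analysis was possible because the groups share no replicate number. At 3 mice a group, changes below the fold threshold are only in part resolved.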
